A study of Mus musculus with 6 samples.

Results

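The nuclear genes for the subunits of the oxidative phosphorylation machinery were taken as every gene whose symbol begins with Ndufa, Ndufb, Ndufc, Ndufs, Ndufv, Uqcr, Cox4 to Cox8 or Atp5, or is Sdha to Sdhd, without pseudogenes and without the Ndufaf assembly factors. This rule found 85 of the 32285 genes measured. By name, 38 belong to complex I, 4 to complex II, 8 to complex III, 18 to complex IV and 17 to complex V. Their 594677 UMIs (unique transcript molecules) were 0.156% of the 381617164 UMIs in the nuclei kept. The pair Cox8b and Cox8c was close to absent, with 3 and 1 UMIs.

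Single-nucleus RNA-seq was done on frozen cortex of mice aged 7.5 months, after a sort that kept nuclei without NeuN, a protein of neuronal nuclei. All 3 groups are on 5xFAD, a transgenic amyloid background, and each has 2 libraries, numbered 2 and 3, for 6 in all. The first group is 5xFAD alone, the second (5xFAD-M28L) also carries M28L in the signalling enzyme phospholipase C-γ2, and the third (5xFAD-P522R) carries P522R in that enzyme. Every library was pooled from both sexes, and no group without the 5xFAD transgenes was analysed here. The labels do not say that replicates came from different mice, so a p-value reflects only how far libraries spread, which may be technical.

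Oxidative phosphorylation passes electrons from NADH (complex I) and succinate (complex II) through complexes III and IV to oxygen, and the proton gradient built on the way drives ATP synthesis by complex V. Mitochondrial DNA codes for a few core subunits, and nuclear genes, among them those described here, code for the others. Both genomes must therefore supply parts of the same complexes. In brain, several complex IV subunits and one subunit once assigned to complex I have paralogues used in particular tissues or oxygen conditions.

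Libraries held 53326947 to 72288942 UMIs over 9269 to 13783 barcodes, and the median per barcode was lowest (3842 UMIs) in 5xFAD replicate 2, the library with most barcodes. Of the barcode sequences, 481 occurred in 2 libraries and 22 in 3. Each nucleus was assigned to a cell type by marker genes, none of which is a subunit gene, and 54643 of 62651 nuclei (87.2%) were assigned. There were 32489 oligodendrocyte, 6247 oligodendrocyte precursor, 3857 astrocyte, 7852 microglia, 427 pericyte and smooth muscle, 1194 excitatory neuron and 1551 inhibitory neuron nuclei. Although the sort was for NeuN-negative nuclei, some nuclei fell in the 2 neuronal gates. The gates are made from these markers, so finding the markers there is no separate evidence of identity. Every neuronal marker was also detected in oligodendrocytes, precursors, astrocytes and microglia. Endothelial cells (381), fibroblasts (388), border macrophages (130) and committed oligodendrocyte precursors (89) had too few nuclei in some libraries for the main test and are described by level. In the pericyte and smooth muscle gate the pericyte markers Atp13a5 (6106 CPM, UMIs scaled to 1000000 of the cell type's UMIs) and Abcc9 (1401 CPM) were abundant, while the smooth muscle genes Acta2 (1.4 CPM) and Myh11 (49.1 CPM) were low, so the gate is called pericytes below.

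The genes lie on 19 chromosomes, and 46 of the 85 overlap no other gene. Spans in the genome (GRCm38, GENCODE M21) ran from 0.953 to 105.382 kb with a median of 7.206 kb. Across genes, UMIs rose with span (Spearman rho 0.59 over 85 genes, a description of genes that share the same libraries), and in gated nuclei the 11 genes longer than 20 kb held 33.1% of the subunit UMIs. Ndufs4, which codes for an accessory subunit of complex I, spans about 100 kb and gave 29790 UMIs in gated nuclei (6.35% of the subunit UMIs there). Sdha, the flavoprotein of complex II, gave 26251 UMIs (5.60%) on the same base. Per kb of span the order was different: Cox7c gave 4762 UMIs per kb, Cox8a 3009, Atp5k 2274 and Atp5a1 1810, against 297 for Ndufs4. Cox7b2 (8.35 UMIs per kb) and Cox4i2 (17.2 UMIs per kb) were among the sparsest. Many subunit genes have processed pseudogenes, and how reads matching more than 1 locus were handled is not given in the sources used here.

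**Figure D1:**
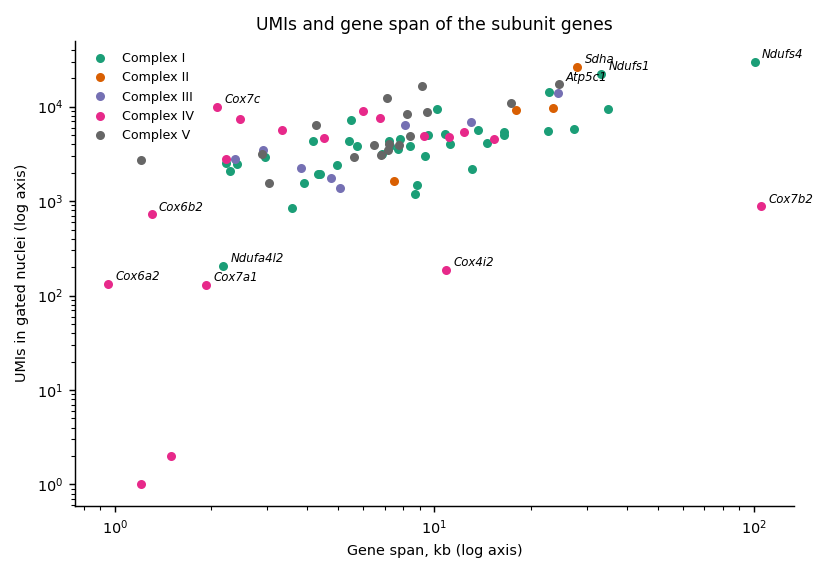
UMIs in gated nuclei (vertical, log axis) against gene span in kb (horizontal, log axis), 1 point per subunit gene, coloured by complex. The longest genes, Ndufs4 and Cox7b2, differ widely in UMIs (29790 and 880), and short Cox7c reaches as many as genes of much greater span.

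Promoter sequences are shown because nuclear respiratory factor 1 (NRF1) and the ETS-family factor GABP are textbook regulators of these genes. RefSeq promoter windows (GRCm38.p6, 250 bases before to 50 after the start) were found for 68 of the 85 genes. The NRF1 motif (GCGCA, any base, then GCGC), searched on both strands, was in 16 of the 68 windows (23.5%) and in 4.603% of all 32851 windows. The ETS motif CCGGAAG was also in 16 (23.5%), against 8.86% of all windows. At least 1 of these motifs was in 28 windows (41.2%), against 12.6%, and the YY1 motif AAGATGGCG was in 6 (8.82%), against 1.40%. The TATA motif TATAAA was in 8 (11.8%), against 13.6% of all windows. CG dinucleotides numbered 19 at the median, against 7 for all windows, and their part in the motif shares was not tested. Each subunit gene entered with 1 window, while the comparison counted every window. A match is a string of letters, not a measured binding site, and its relation to the levels by cell type was not tested. The lines below give the part of 4 windows that lies outside annotated exons, read 5′ to 3′ on the gene's strand (the minus strand for all 4), with motif matches in capitals. In the stretch printed, Cox6a1 (chr5:115348982-115349129) has 2 NRF1 matches and Sdhd (chr9:50603850-50603909) has an ETS match on the opposite strand. Over the whole window Cox6a1 and Sdhd each have both motifs. Ndufa4 (chr6:11907498-11907700) and Cox7b2 (chr5:71548206-71548455) have neither exact string in the whole window, like most of the 68 windows. Shorter or looser forms of the motifs were not searched.
Cox6a1: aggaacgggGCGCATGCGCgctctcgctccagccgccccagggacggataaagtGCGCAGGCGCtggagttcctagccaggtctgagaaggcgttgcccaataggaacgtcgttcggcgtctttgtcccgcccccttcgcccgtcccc
Sdhd: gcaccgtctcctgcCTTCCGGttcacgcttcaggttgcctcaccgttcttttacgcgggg
Ndufa4: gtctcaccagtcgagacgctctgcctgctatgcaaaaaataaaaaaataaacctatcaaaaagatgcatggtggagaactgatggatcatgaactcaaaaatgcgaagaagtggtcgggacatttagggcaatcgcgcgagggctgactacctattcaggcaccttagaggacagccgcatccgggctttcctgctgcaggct
Cox7b2: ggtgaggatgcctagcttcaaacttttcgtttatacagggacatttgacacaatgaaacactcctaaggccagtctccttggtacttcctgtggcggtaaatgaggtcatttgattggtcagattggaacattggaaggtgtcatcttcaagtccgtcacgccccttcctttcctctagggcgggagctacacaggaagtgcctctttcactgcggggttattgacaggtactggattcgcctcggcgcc

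Summed over the 85 genes, the level was highest in endothelial nuclei, at 3723 ± 843 CPM (mean ± SD, n = 6 libraries). Pericytes followed at 2507 ± 319 CPM, fibroblasts at 2371 ± 197 and astrocytes at 2282 ± 151. Border macrophages were at 1772 ± 118 CPM, microglia at 1758 ± 135, inhibitory neurons at 1584 ± 80 and oligodendrocytes at 1474 ± 139. The lowest summed levels were in committed oligodendrocyte precursors (1418 ± 85.4 CPM), excitatory neurons (1263 ± 62.3) and oligodendrocyte precursors (1248 ± 83.7). Endothelial nuclei ranked first of the 11 types in all 6 libraries, with 4984, 3365 and 4351 CPM in the replicate 2 libraries (5xFAD, then 5xFAD-M28L, then 5xFAD-P522R) and 3732, 3317 and 2593 CPM in the replicate 3 libraries. Astrocytes ranked 3 or 4 in every library, and their 6 values (2054 to 2449 CPM) lay above all 6 border macrophage values. The other clear step was from committed precursors to excitatory neurons, while the remaining neighbours in the order had overlapping ranges. Among these, endothelial nuclei were above pericytes in 6 of 6 libraries and microglia were above inhibitory neurons in 6 of 6. The summed level has no test, since it adds genes of very different counts.

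**Figure D2:**
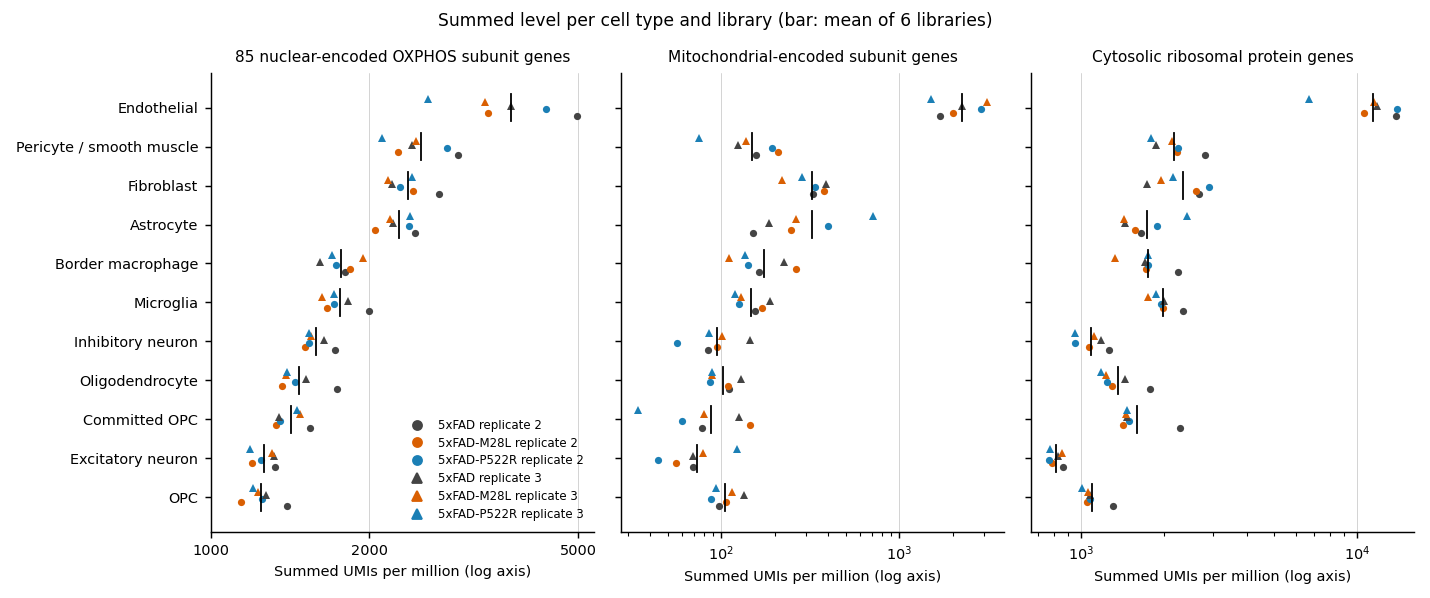
Summed CPM (log axes) per cell type, 1 marker per library (colour: group; circle: replicate 2; triangle: replicate 3) and a bar at the mean of 6 libraries, for the 85 nuclear-encoded subunit genes, the mitochondrial-encoded subunit genes and the cytosolic ribosomal protein genes. Endothelial nuclei have the highest mean in all 3 panels, their range in the left panel overlaps that of pericytes, and astrocytes are above all oligodendrocyte-lineage and neuronal nuclei in the left panel.

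Other transcripts were also highest in endothelial nuclei. Cytosolic ribosomal protein genes summed to 6688 to 13986 CPM in endothelial nuclei and to 763 to 2918 CPM in the other types. Mitochondrial-encoded subunit transcripts, which are not made in the nucleus, summed to 1502 to 3102 CPM in endothelial nuclei, to 150 to 708 CPM in astrocytes and to 34.3 to 385 CPM elsewhere. Their part in the endothelial result was not tested. Among the endothelial sums, 5xFAD replicate 2 had the highest nuclear-encoded level (4984 CPM) with 1693 CPM of mitochondrial-encoded transcripts. The highest mitochondrial-encoded level (3102 CPM) was in 5xFAD-M28L replicate 3, with 3317 CPM nuclear-encoded. In astrocytes 5xFAD replicate 2 had the highest nuclear-encoded level (2449 CPM) and the lowest mitochondrial-encoded level (150 CPM). The highest mitochondrial-encoded levels were in 5xFAD-P522R replicates 2 and 3 (398 and 708 CPM). Their nuclear-encoded levels (2381 and 2392 CPM) came next after that of 5xFAD replicate 2. How the 2 sums go together was not tested.

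Astrocytes, which supply neurons with metabolites and clear transmitter, had higher levels of nearly the whole gene set than the average of the other 6 types tested. Of 81 subunit genes tested with edgeR, 75 were higher in astrocytes and 0 were lower, where 34.3% of all 16479 genes were higher and 29.7% lower. The median log2 fold change was 0.53 over the subunit genes and -0.00 over all genes. Every complex took part: 33 of 38 genes of complex I were higher (median log2 0.43), 4 of 4 of complex II (0.52), 8 of 8 of complex III (0.55), 13 of 14 of complex IV (0.70) and 17 of 17 of complex V (0.63). Among the genes that did not pass were Ndufa1, Ndufs6, Ndufv3, Ndufa4l2 and Cox7a2l. With total UMIs as the scale, without the TMM factors of the main test, the counts were again 75 higher and 0 lower. In nuclei of 2000 to 6000 UMIs, which brings depth closer together, 49 were higher and 1 lower (median log2 0.47). Shares of all genes at these other settings are not given here.

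**Figure D3:**
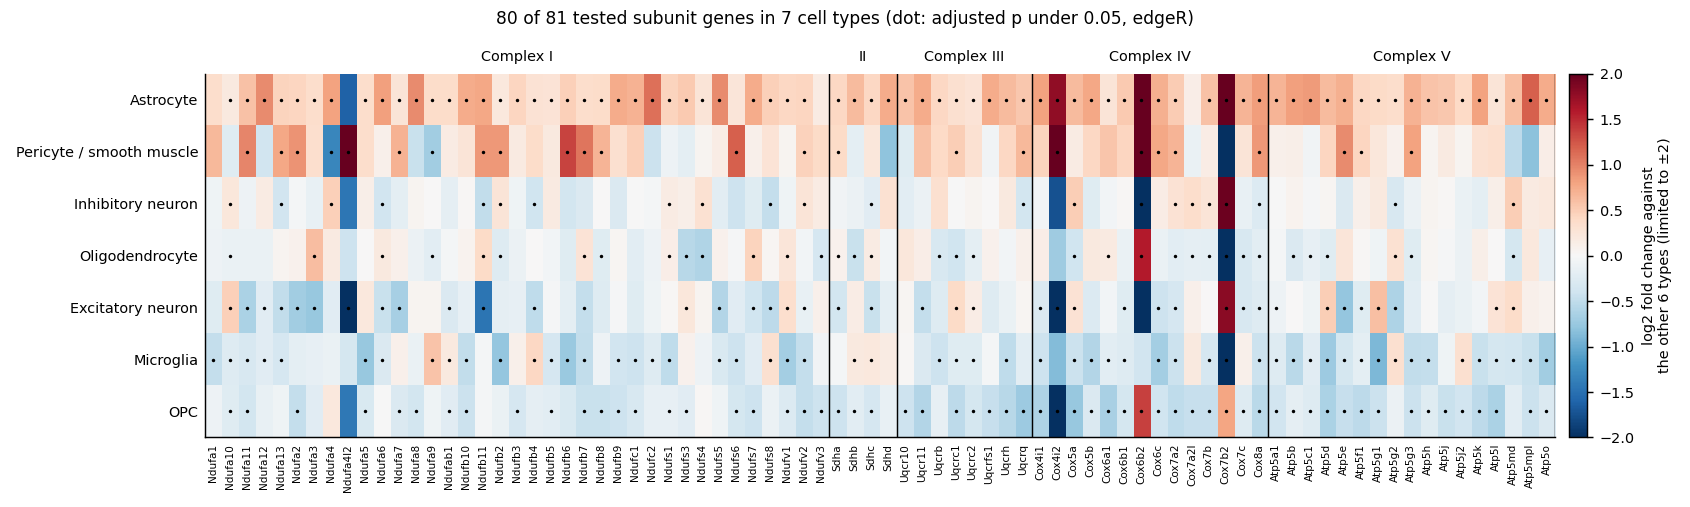
log2 fold change of 80 of the 81 tested subunit genes (columns, by complex) in 7 cell types (rows) against the other 6 types, colour limited to ±2, with a dot where edgeR's adjusted p was under 0.05. The astrocyte row is red in nearly every column with TMM scaling (75 higher, 0 lower) and the oligodendrocyte precursor row mostly blue (2 higher, 59 lower), while the microglia row is mostly blue with TMM scaling (8 higher, 48 lower) but not with total UMIs (22 higher, 13 lower).

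The catalytic head of ATP synthase was among the clearest astrocyte groups. Atp5b, the catalytic beta subunit, had 69.2, 68.7 and 79.8 CPM in astrocytes in the replicate 2 libraries, in the group order above, and 70.0, 69.5 and 94.5 CPM in the replicate 3 libraries. Its log2 fold change was 0.81 (SE 0.05, edgeR adjusted p = 3.15e-17). Atp5c1, the gamma subunit of the rotor stalk, averaged 101 CPM in astrocytes against 47.2 to 64.2 CPM in the other types tested with the exception of pericytes (70.2 CPM), a log2 fold change of 0.85 (SE 0.05, edgeR adjusted p = 2.75e-20). The 6 astrocyte values of Atp5c1 (91 to 110 CPM) did not overlap those of oligodendrocytes (47.4 to 57.6 CPM). Atp5a1, the alpha subunit, rose by 0.67 on the log2 scale. The membrane c-ring is encoded by 3 genes with the same mature protein: Atp5g1, Atp5g2 and Atp5g3 had log2 fold changes of 0.38, 0.35 and 0.69 in astrocytes. These 3 genes parted ways elsewhere with the same scaling: in excitatory neurons Atp5g1 was higher (0.61) and Atp5g2 lower (-0.62), whereas in microglia Atp5g1 (-0.90) and Atp5g3 (-0.50) were lower and Atp5g2 higher (0.33).

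In complexes I to III the abundant genes shifted by smaller amounts in astrocytes. Ndufs4 had a log2 fold change of 0.26, Ndufs1, an iron-sulfur subunit of complex I, 0.44, and Ndufv2, of the NADH-oxidising module, 0.43. The largest change in complex I was in Ndufc2, a membrane-arm subunit. Ndufc2 had 30.3, 26.4, 31.9, 28.5, 29.2 and 24.8 CPM in the 6 astrocyte sums and 11.1 to 16.3 CPM in oligodendrocytes, with no overlap (log2 fold change 1.10, SE 0.09, edgeR adjusted p = 9.44e-15 against all other types). Sdha, Sdhb and Sdhc, of succinate dehydrogenase, rose by 0.42, 0.63 and 0.41 on the log2 scale. The complex III core genes Uqcrc1 and Uqcrc2 rose by 0.32 and 0.28, and the hinge subunit gene Uqcrh by 0.63.

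In complex IV the usual isoforms Cox4i1, Cox7c and Cox8a were higher in astrocytes by 0.80, 0.69 and 0.83 on the log2 scale. Cox8a, for instance, had 34.3 to 58.1 CPM in astrocytes and 19.2 to 32.1 CPM in oligodendrocytes, without overlap. The largest astrocyte changes of all were in sparse paralogues. Cox6b2, known as the testis form of a subunit that joins the monomers of the complex IV dimer, rose by 3.14 on the log2 scale (SE 0.27, edgeR adjusted p = 4.35e-13). The types it was compared with include inhibitory neurons, which had 0 UMIs of Cox6b2. Cox7b2 rose by 2.93 (SE 0.23, edgeR adjusted p = 9.66e-15).

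Pericytes, the contractile cells of capillaries, differed most in which paralogue they used. Cox4i2, a form of the complex IV subunit 4 known from lung and from oxygen-sensing cells (chromosome 2, 152754173 to 152765037, plus strand, overlapping no other gene), had 73.9, 57.7 and 76.2 CPM in pericytes in the replicate 2 libraries, in the same order, and 44.9, 56.4 and 42.8 CPM in the replicate 3 libraries. Those levels rest on 86 UMIs. Astrocytes had 1.01 to 1.75 CPM and no other type outside the endothelium exceeded 0.732 CPM in any library, so pericytes overlapped none of them. The log2 fold change was 7.72 (SE 0.30, edgeR adjusted p = 7.79e-25). The common form Cox4i1 had 61.6, 36.1, 49.3, 57.7, 61.6 and 10.7 CPM in the same pericyte sums, and its log2 fold change of 0.44 (SE 0.21, edgeR adjusted p = 0.0937) did not pass. The smaller astrocyte level of Cox4i2 also passed as higher (log2 1.78), while it passed as lower in oligodendrocyte precursors on 4 UMIs and in excitatory neurons on 1. Cox4i2 made up 54.4% of the UMIs of the pair in pericytes (exact binomial 95% interval 46.3% to 62.4%, counting error only; 43.8% to 80.0% by library), 4.09% in endothelial nuclei, 2.77% in astrocytes and at most 1.07% in every other type.

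Ndufa4l2, a paralogue of Ndufa4 known to be induced in low oxygen (chromosome 10, 127514967 to 127517154, plus strand), showed the same pattern. Its pericyte levels were 92.3, 72.1, 67.2, 67.3, 71.8 and 107 CPM (110 UMIs), and outside the vessel wall its mean level was at most 1.01 CPM. The log2 fold change was 8.45 (SE 0.32, edgeR adjusted p = 2.88e-25). Its span overlaps a gene on the other strand, and whether counting used strand is not given in the sources used here. Ndufa4 itself, whose protein sits in complex IV although its name is of complex I, had 12.3, 18.03, 4.48 and 3.20 CPM in 4 pericyte sums and 0 in replicate 3 of 5xFAD-M28L and 5xFAD-P522R. Over the 6 libraries this was 11 UMIs. Ndufa4 was lower in pericytes (log2 fold change -1.31, SE 0.40, edgeR adjusted p = 0.00742), and with total UMIs as the scale the value was -0.93 with an adjusted p of 0.0560, which does not pass. Ndufa4l2 held 90.9% of the UMIs of its pair in pericytes (exact 95% interval 84.3% to 95.4%), 17.0% in endothelial nuclei and at most 3.85% elsewhere.

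Endothelial nuclei held both paralogues at lower levels: Cox4i2 from 0 to 10.8 CPM (7 UMIs) and Ndufa4l2 from 4.26 to 32.3 CPM (29 UMIs). Here Ndufa4 was abundant, at 130, 66.1, 119, 75.4, 58.6 and 40.05 CPM, above every pericyte value. Pericyte markers summed to 823 to 1360 CPM in endothelial nuclei, mainly Rgs5 (821 CPM), against 11594 to 12789 CPM in pericytes, and all 9 were detected. In the other direction, the 11 endothelial markers summed to 282 to 806 CPM in pericytes, against 13816 to 26562 CPM in their own gate. The part of these transcripts in the endothelial paralogue levels was not tested.

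**Figure D4:**
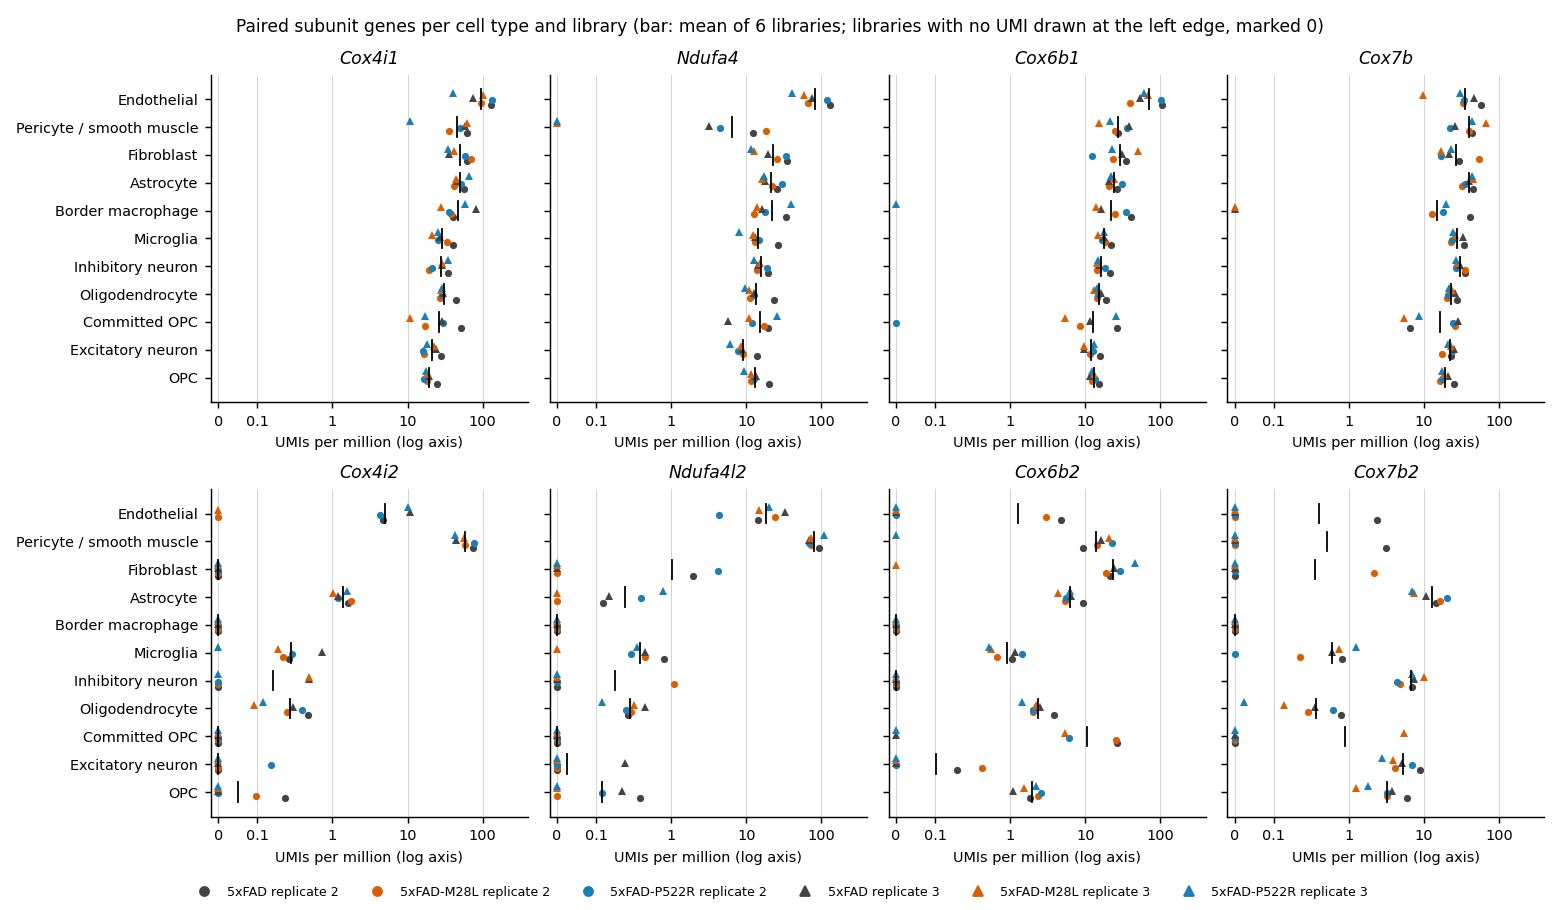
CPM (log axis; libraries with no UMI at the left edge) of 4 common subunit genes (top) and their paralogues (bottom) in 11 cell types, 1 marker per library and a bar at the mean. Cox4i2 and Ndufa4l2 stand out in pericytes and reach 76.2 and 107 CPM, Ndufa4 is low there, and Cox7b2 is highest in astrocytes and neurons.

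The third paralogue with a cell type pattern was Cox6b2 (chromosome 7, 4751792 to 4753094, minus strand, overlapping no other gene). Astrocytes had 9.30, 5.43, 5.51, 6.44, 4.31 and 6.20 CPM of Cox6b2, and pericytes 9.23, 14.4, 22.4, 16.02, 20.5 and 0 CPM. Fibroblasts had 0 to 45.5 CPM, oligodendrocytes 1.44 to 3.82 and oligodendrocyte precursors 1.09 to 2.61 CPM. Inhibitory neurons had no UMI in any library and passed as lower (edgeR adjusted p = 1.27e-06). Cox6b2 held 21.9% of the UMIs of the Cox6b1 and Cox6b2 pair in astrocytes, 13.1% in oligodendrocytes, 12.97% in oligodendrocyte precursors, 4.69% in microglia and 0.82% in excitatory neurons, while the 0 of 237 in inhibitory neurons allows up to 1.54% by the exact 95% interval. Pericytes (log2 fold change 4.16), oligodendrocytes (1.59) and precursors (1.36) each passed as higher than the other types. The comparison is with a mean of log levels that includes inhibitory neurons (0 UMIs) and excitatory neurons (3 UMIs). The sizes of these changes therefore depend on nearly empty types. Oligodendrocytes and precursors lay below every astrocyte value. In fibroblasts the paralogue held 41.0% of the pair. Astrocyte markers summed to 2081 to 2938 CPM there, mainly Slc1a3 (1773 CPM). Slc1a2 was at 65.4 CPM in fibroblasts, against 8702 CPM in astrocytes. The part of these transcripts in the fibroblast share was not tested.

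Cox7b2 (chromosome 5, 71442824 to 71548205, minus strand) drew another line, between astrocytes and neurons on one side and oligodendrocytes and microglia on the other. It had 14.4, 16.3, 20.4, 10.6, 7.35 and 6.97 CPM in astrocytes, 4.41 to 10.1 CPM in inhibitory and 2.71 to 8.73 CPM in excitatory neurons. Oligodendrocyte precursors had 1.23 to 5.88 CPM and mature oligodendrocytes 0.0401 to 0.782 CPM, which do not overlap. Cox7b2 passed as higher in inhibitory neurons (log2 fold change 1.96), excitatory neurons (1.81) and precursors (0.80), and as lower in oligodendrocytes (-2.86) and microglia (-2.26). It held 24.7% of the UMIs of the Cox7b and Cox7b2 pair in astrocytes, 19.6% and 17.8% in excitatory and inhibitory neurons, 15.3% in precursors and 1.60% in oligodendrocytes. Cox7b itself differed less, from -0.46 in precursors to 0.58 in astrocytes on the log2 scale.

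The muscle-type paralogues were scarce. Cox6a2 was too sparse for the test, and 42 of its UMIs were in microglia (0.557 to 2.34 CPM), where it held 6.45% of the UMIs of its pair with Cox6a1. Its span overlaps another gene, on the other strand. Cox7a1 had 130 UMIs in all gated nuclei and 0 in pericytes. Cox7a2l, which codes for a factor that joins respiratory complexes into larger assemblies, passed as higher in inhibitory neurons (0.34) and lower in oligodendrocytes (-0.18) and precursors (-0.46). Its partner Cox7a2 was higher in astrocytes (0.50), pericytes (0.68) and inhibitory neurons (0.29).

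With the paralogues included, 23 of 81 subunit genes were higher in pericytes and 2 were lower, where 15.4% of all genes were higher and 25% lower. The median was 0.30 over the subunit genes and -0.35 over all genes. By complex, 12 genes of complex I were higher and 2 lower, and 1, 2, 5 and 3 genes of complexes II to V were higher with 0 lower. Cox8a (0.87) and Ndufb2 (0.86) were among those higher. Besides Ndufa4, Ndufa9 was lower (-0.70, SE 0.22, edgeR adjusted p = 0.0314). Pericytes had 27 to 125 nuclei per library, and the count of 25 called genes fell to 16 without 5xFAD replicate 2 and to 15 without 5xFAD-M28L replicate 2. The shares of all genes without these libraries are not given here.

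Oligodendrocyte precursors, the dividing progenitors of myelinating cells, showed the opposite of astrocytes. Of 81 subunit genes, 59 were lower and 2 higher, where 27.6% of all genes were lower and 35.1% higher, and the medians were -0.35 and 0.02. Lower genes numbered 22 of 38 in complex I, 3 of 4 in complex II, 7 of 8 in complex III, 12 of 14 in complex IV and 15 of 17 in complex V. The only higher ones were the paralogues Cox6b2 and Cox7b2. Cox5a, a peripheral subunit of complex IV, had 11.2, 8.93, 12.8, 10.9, 8.18 and 10.3 CPM in precursors and 18.6 to 33.5 CPM in astrocytes, with no overlap (log2 fold change -0.75, edgeR adjusted p = 2.58e-10 against the other types). Uqcrq, a small subunit of complex III, was lower by a similar amount (-0.73), with 5.40 to 9.76 CPM against 13.6 to 20.6 CPM in astrocytes. In nuclei of 2000 to 6000 UMIs 20 genes were lower and 0 higher (median -0.25), and the shares of all genes at that depth are not given here.

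Mature oligodendrocytes did not differ from the other types in 1 direction. There were 13 genes higher and 23 lower, where 33.3% of all genes were higher and 36.4% lower. The medians were -0.05 and -0.09. For the other settings that follow, the shares of all genes are not given here. With other scalings the lower genes again outnumbered the higher ones, at 7 higher and 35 lower with RLE size factors and 6 and 36 with total UMIs. The split turned with other choices: 32 higher and 7 lower with no filter on low counts, 27 and 9 with Leiden clusters, 24 and 11 with doublets kept, and 23 to 28 higher and 9 to 11 lower with any 1 of the 6 libraries left out. Ndufs4 was lower (-0.60, edgeR adjusted p = 3.1e-15), with 70.5 to 81.5 CPM against 118 to 144 CPM in astrocytes and 96.3 to 115 CPM in precursors, none of which overlap. Ndufs3, of the complex I core, was also lower (-0.55). Ndufa3, a small accessory subunit, was higher (0.62), with 9.04 to 16.9 CPM against 3.54 to 5.62 CPM in excitatory neurons, as was Ndufs7 (0.44). The 3 genes Ndufs4, Ndufs3 and Ndufa3 are all of complex I, so members of 1 complex parted here.

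In microglia, the resident immune cells of the brain, the direction of the set depended on the scale: 8 genes were higher and 48 lower with TMM factors (median log2 -0.30, all genes -0.10), but 22 higher and 13 lower with total UMIs (median 0.03). Of all genes, 36.5% were higher and 38.5% lower with TMM, and the shares with total UMIs are not given here. The mean log2 TMM factor was 0.27 in microglia and 0.34 in pericytes, against -0.31 in excitatory neurons, -0.14 in oligodendrocyte precursors and -0.09 to 0.01 in the others, which is the amount by which the scales differ. Relative to each other, complex II stood highest with 2 genes higher and 0 lower under TMM, against 4 and 20 in complex I, 0 and 4 in complex III, 0 and 10 in complex IV and 2 and 14 in complex V. Ndufa9, a complex I subunit at the junction of its arms, was the most raised gene (0.57, edgeR adjusted p = 1.18e-10), followed by Ndufb4 (0.41) and Ndufs8 (0.33). Besides Cox7b2, the most lowered were Atp5g1 (-0.90) and Ndufb2 (-0.77).

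Both neuronal gates lay near or below the other types. In inhibitory neurons 12 genes were higher and 10 lower, where 34.5% of all genes were higher and 24.4% lower, with medians of -0.00 and 0.05. Besides Cox7b2, Cox5a and Atp5md (0.49 each) were the highest, and Ndufb11 (-0.50) and Ndufs8 (-0.48) were low. In excitatory neurons 11 were higher and 31 lower, where 42.2% of all genes were higher and 30.8% lower, with medians of -0.19 and 0.09. Besides Cox7b2, Atp5g1 (0.61) and Atp5d (0.49), both of ATP synthase, were the highest. With total UMIs as the scale, the excitatory counts were 2 and 67, and the shares of all genes on that scale are not given here. Ndufb11, an X-linked accessory subunit of complex I, had 1.99, 2.76, 1.51, 2.69, 2.36 and 1.62 CPM in excitatory neurons and 8.09 to 13.2 CPM in astrocytes (log2 fold change -1.46, edgeR adjusted p = 9.41e-10 against the other types). Excitatory nuclei had medians of 20185 to 26172 UMIs per library, far above the other types, and none could be kept in the range of 2000 to 6000 UMIs. The part of depth in their values was not tested.

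When the 4 smaller types were added to the fit, which then compared each with 10 others, 60 subunit genes were higher in endothelial nuclei and 1 was lower, where 22.1% of 15551 genes were higher and 18.9% lower. The median was 1.24, and -0.09 over all genes. The lower gene was Ndufs1 (-0.69, SE 0.17, edgeR adjusted p = 0.000662). The abundant genes Ndufs4 and Sdha had log2 fold changes of -0.07 and 0.05, and neither passed. The highest values were those of Ndufa4l2 (5.71) and Cox4i2 (3.96), then Atp5k (3.68), Ndufa1 (3.43) and Uqcr11 (2.92), and Ndufa4 was at 2.29. The first of these values rest on few endothelial UMIs, 29 for Ndufa4l2 and 7 for Cox4i2. Fibroblasts, border macrophages and committed precursors, among the types compared, had 0 UMIs of Cox4i2. In fibroblasts 9 genes were higher and 1 lower, where 21.9% of all genes were higher and 13.8% lower. These types had as few as 15 nuclei in a library. By mean level, 55 of the 83 genes were highest in endothelial nuclei among the 11 types, 10 in pericytes and 6 in astrocytes. Among the 7 types of the main test, 44 were highest in pericytes, 31 in astrocytes and 8 in microglia.

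Related gene lists give the setting of the astrocyte pattern. Mitochondrial-encoded subunits were higher in astrocytes for 10 of 10 genes (median log2 1.48), where 34.3% of all genes were higher, enzymes of the tricarboxylic acid cycle for 15 of 18 with 0 lower (0.61), and glycolysis for 14 of 17 with 1 lower (0.83). Aldoc, the brain aldolase, rose by 4.44 on the log2 scale, Pfkm by 2.43, Ldhb by 2.08, and Pcx, the pyruvate carboxylase that refills the cycle, by 1.96. Electron carriers and their partners were higher for 8 of 11 genes with 0 lower, among them Cyc1 (0.93) and Etfb (1.15), and carriers and pores for 9 of 12 with 2 lower, among them the phosphate carrier Slc25a3 (1.21). Assembly factors were higher for 18 of 38 genes with 2 lower, led by Cox10 at 1.78, and cytosolic ribosomal proteins for 45 of 76 with 1 lower. Import genes were higher for 6 of 15 with 2 lower, a share near that of all genes, and mitochondrial ribosomal proteins for 24 of 78 with 3 lower, a share below that of all genes. The medians of these last 4 lists were 0.26, 0.29, 0.18 and 0.14, all under the 0.53 of the subunit genes.

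Regulators of mitochondrial gene expression were split in astrocytes, with 7 higher and 7 lower of 17. Ppargc1a, the coactivator known for driving mitochondrial biogenesis, was higher in astrocytes (3.38), inhibitory neurons (2.08), excitatory neurons (1.47) and oligodendrocyte precursors (1.08) and lower in microglia (-3.41), oligodendrocytes (-2.81) and pericytes (-1.78). Ppara, which switches on fatty acid oxidation, was higher in astrocytes (4.86), pericytes (2.83) and precursors (2.505). Epas1, the oxygen-sensing factor HIF-2 alpha, was higher in pericytes (4.43), precursors (3.38) and astrocytes (3.32) and lower in excitatory neurons (-5.65), and Hif1a was higher in microglia (1.93). Nrf1, whose motif was searched above, differed less, at 0.91 in astrocytes and -0.82 in excitatory neurons. In oligodendrocytes glycolysis fell for 12 of 17 genes with 1 higher (median -1.05) and the tricarboxylic acid cycle for 11 of 18 with 4 higher, where 36.4% of all genes were lower. Oligodendrocyte precursors had 9 of 17 glycolysis genes and 10 of 18 cycle genes lower, with 2 and 1 higher, where 27.6% of all genes were lower. Microglia had 13 of 18 cycle genes lower and 4 higher with TMM (38.5% of all genes were lower). With total UMIs the counts were 5 and 5, and the shares of all genes are not given.

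Between the groups, no subunit gene passed in any of 7 cell types and 3 contrasts by edgeR (adjusted p under 0.05). Of all genes, M28L against 5xFAD called 0.00723% in microglia, 0.097% in pericytes and 0 in the other 5 types. P522R against 5xFAD called 0.00671% in oligodendrocyte precursors, 0.0072% in astrocytes, 0.0776% in pericytes, 0.495% in inhibitory neurons and 0 in oligodendrocytes, microglia and excitatory neurons. P522R against M28L called 0.0072% in astrocytes, 0.0361% in microglia, 0.0194% in pericytes, 0.0221% in excitatory neurons and 0 in the other 3. Both contrasts with 5xFAD share its 2 libraries and are not independent. The number of subunit genes tested was 74 to 80 per type, and 25 in pericytes. With the replicate number as a block, edgeR called 14 subunit genes for M28L against 5xFAD, 10 in oligodendrocytes (5.87% of all genes called) and 4 in precursors (5.88%). For P522R against 5xFAD the block gave 9, with 6 in oligodendrocytes (4.9%) and 3 in precursors (4.81%). All of these calls were lower than in 5xFAD. In both of these types same-numbered libraries deviated together in every pair of groups (correlations 0.35 to 0.43 in oligodendrocytes and 0.26 to 0.38 in precursors, across genes), but the labels do not say what a replicate number marks.

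The fold changes of the subunit genes nevertheless leaned 1 way against 5xFAD. In every type and both contrasts they rest on the same 5xFAD libraries, so their agreement is not independent. The medians of all genes between groups are not given here, so the subunit medians do not single out the subunit genes. The median log2 fold change of the subunit genes for M28L was -0.27 in oligodendrocytes, -0.22 in precursors, -0.16 in astrocytes, -0.21 in microglia, -0.17 in pericytes, -0.21 in excitatory and -0.17 in inhibitory neurons. For P522R the medians were -0.33, -0.20, -0.04, -0.27, -0.09, -0.18 and -0.18 in the same order. Between P522R and M28L they lay between -0.05 and 0.15. At an unadjusted p under 0.05, 25 of 80 genes in oligodendrocytes differed for M28L and 27 for P522R, where 12.5% and 11.4% of all genes did. In microglia the numbers were 8 and 8 of 77 (6.27% and 10.6% of all genes), and in precursors 9 and 11 of 79 (12.1% and 11.1%). Astrocytes had 7 and 4 of 79 (4.8% and 9.71%), excitatory neurons 3 and 9 of 78 (10.4% and 9.5%), inhibitory neurons 3 and 4 of 74 (5.86% and 10.9%) and pericytes 0 and 1 of 25 (5.33% and 4.87%). Between P522R and M28L there were 0 to 3 such genes per type, where 6.28% of all genes passed that level in oligodendrocytes, 5.61% in precursors, 7.51% in astrocytes, 8.52% in microglia, 4.87% in pericytes, 5.04% in excitatory and 5.9% in inhibitory neurons. DESeq2 called 1 subunit gene, in oligodendrocytes, in each contrast with 5xFAD, and the share of all genes it called is not given here.

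The library 5xFAD replicate 2 stood apart in level. Subunit genes with at least 30 UMIs in the type were counted by the library in which each was highest. It was this library for 63 of 83 genes in oligodendrocytes, 52 of 78 in microglia and 43 of 79 in precursors. In astrocytes it was so for 21 of 80, while 5xFAD-P522R replicate 3 was the highest library for 27. The same count over all genes is not given here, so these numbers do not single out the subunit genes. The summed subunit level of 5xFAD replicate 2 was 1.24 times the median of the other libraries in oligodendrocytes and 1.17 times in microglia. For complex IV the ratios were 1.44 and 1.37, and for complex II 1.01 and 0.99. Cytosolic ribosomal proteins were also highest there in oligodendrocytes, at 1777 CPM, with a ratio of 1.43. Without this library the oligodendrocyte medians were -0.15 for M28L and -0.16 for P522R. That fit has 1 library in the 5xFAD group, whose spread is taken from the other groups, so only its medians are given. In microglia the medians were -0.12 and -0.13, and in astrocytes and pericytes the P522R medians turned positive (0.04 and 0.03).

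**Figure D5:**
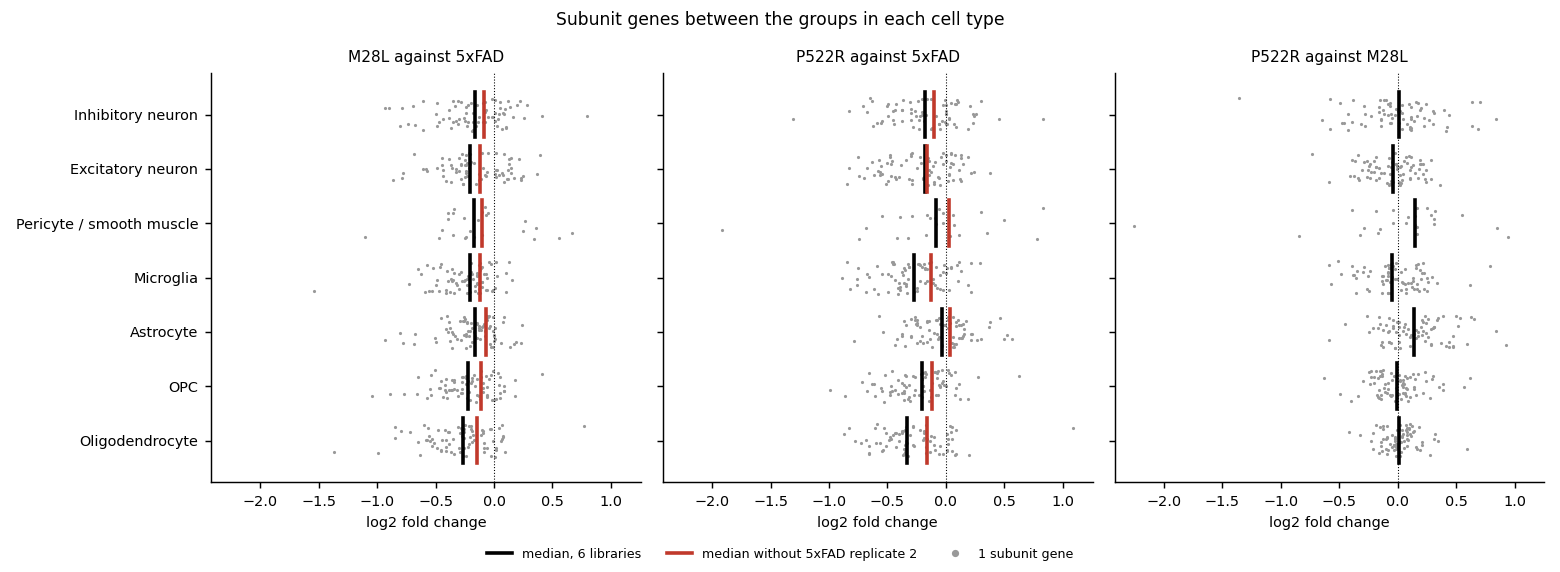
log2 fold change of each tested subunit gene (points) between groups in 7 cell types, with the median over 6 libraries (black) and without 5xFAD replicate 2 (red; not drawn for P522R against M28L). Black bars against 5xFAD lie at or left of -0.04, red bars lie to the right of the black ones, and P522R against M28L centres between -0.05 and 0.15.

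Cox7c showed the pattern most clearly among single genes in oligodendrocytes. It had 38.4 and 35.4 CPM in 5xFAD replicates 2 and 3, 22.3 and 25.1 CPM in 5xFAD-M28L, and 23.9 and 24.4 CPM in 5xFAD-P522R. Both 5xFAD libraries were above all 4 others. The log2 fold change was -0.60 for M28L (SE 0.10, edgeR adjusted p = 0.349) and -0.61 for P522R (SE 0.10, edgeR adjusted p = 0.244), and neither passed.

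In microglia, the cells in which phospholipase C-γ2 is chiefly expressed in brain, the genes with the smallest p are described although none passed. Cox7c had 61.4 and 49.2 CPM in 5xFAD, 39.4 and 39.0 in 5xFAD-M28L, and 44.9 and 44.1 in 5xFAD-P522R (M28L log2 fold change -0.46, SE 0.14, edgeR adjusted p = 0.775). Cox7b, of complex IV, had 33.8 and 32.9 CPM in 5xFAD and 23.1 to 25.8 CPM in the 4 variant libraries, with no overlap (log2 -0.41 for M28L and -0.49 for P522R). Ndufa1, a small X-linked complex I subunit, had 4.78 and 3.37 CPM in 5xFAD and 1.78 and 0.929 in 5xFAD-M28L (log2 -1.54). Atp5g3 followed for M28L (-0.73). For P522R, Cox6c had 23.1 and 17.3 CPM in 5xFAD against 10.6 and 12.8 CPM (log2 -0.76, SE 0.23, edgeR adjusted p = 0.394). Ndufa13, also of complex I, had 19.7 and 13.2 CPM against 9.15 and 9.84 CPM (log2 -0.76), and Atp5g2 a log2 fold change of -0.39. Without 5xFAD replicate 3, which leaves 1 library in that group, Ndufa13 passed (log2 -1.06, edgeR adjusted p = 0.0491), and the lone library was assumed to vary like those of the other groups. Between P522R and M28L, Sdhd, a membrane anchor of complex II, had the smallest p, with 4.86 and 6.15 CPM against 8.45 and 7.99 CPM (log2 -0.59, edgeR adjusted p = 0.642). Atp5h (-0.38), Ndufc2 (0.33) and Cox6c (-0.39) followed.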

How the data were processed

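For each of 6 libraries (10x Genomics 3′ v3, per the labels' protocols) the authors deposited a matrix of UMI counts, not normalized. Cell Ranger 6.1.2 and mm10 are named in the submitters' processing notes, and 1 library, 5xFAD-P522R replicate 3, carries version 5.0.1, per the file headers. Whether intron reads were counted is not given in the sources used here. Nuclei were kept from 500 UMIs and 300 genes upwards if no more than 5% of their UMIs were mitochondrial. Doublets (2961) were called with Scrublet in scanpy 1.11.5 and removed. The median of 3 libraries' automatic score thresholds (0.295) was used for all. A nucleus took a cell type if at least 3 of that type's markers were detected and their share was at least 1.5 times that of the next type, bounds set after looking at the data. Leiden clusters made without the subunit genes gave the same name for 98.8% of nuclei named by both.

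UMI counts were summed per library and cell type and tested in R 4.3.3 by edgeR 4.0.16 (two-sided quasi-likelihood F-test, TMM scaling, filterByExpr at min.count 10, Benjamini-Hochberg over all genes of a contrast, threshold 0.05). Cell types with at least 20 nuclei in every library were each compared with the unweighted mean of the others, with library as a block. Groups were compared over 6 libraries within a type, with no block. The standard error was the fold change divided by the square root of F. On counts simulated from oligodendrocytes, the group test called 82 of 100 genes changed 2-fold, and the type test, simulated for microglia, 96 of 98. CPM is a gene's UMIs scaled to 1000000 UMIs of the type in a library. Shares of a gene pair carry exact binomial 95% intervals, which cover counting error only.

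The genes, lists and tests were chosen with earlier results of these data known. Named genes were the paralogue pairs, the 3 most abundant genes of each complex, up to 3 called genes per type and direction, and in microglia the 4 genes with the smallest p per contrast. Other genes named (Cox7b with Cox7b2, Cox7c in oligodendrocytes, the endothelial examples and members of related lists) were chosen after their values were seen. 1 gene enters the counts but is not reported here by itself. Alternatives were DESeq2 1.42.0, RLE factors, total UMIs, other filters, depth ranges, gates and clusters, doublets kept, 11 types, blocks, and each library left out.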

Additional observations from a re-analysis of the deposited data

How the results depend on the processing

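Over all alternatives, 220 summary values stayed within their bounds and 21 moved. Single-gene values were followed for a selection only, at most 50 per setting, not for all tested genes. Those followed kept their direction (906 on the same side of the threshold, 57 weaker, 7 stronger). Over all subunit genes, the balance of higher and lower turned with the setting in microglia and oligodendrocytes, as described above. Between groups, where the main count was 0, M28L against 5xFAD had 1 call with DESeq2 and 3 without a filter on low counts, and P522R against 5xFAD had 1 and 6, and 0 to 2 with 1 library left out (2 without 5xFAD replicate 3). The replicate block gave 14 and 9 calls, all lower. Apart from the block, the shares of all genes at these settings are not given here, so the counts do not single out the subunit genes. Same-numbered libraries deviated together in every pair of groups in oligodendrocytes (correlations 0.35 to 0.43), precursors (0.26 to 0.38), astrocytes (0.13 to 0.32), microglia (0.18 to 0.27) and excitatory neurons (0.22 to 0.28), and less evenly in pericytes (0.03 to 0.12) and inhibitory neurons (-0.06 to 0.22). The labels do not say what a number marks.

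Between cell types, nuclei of 2000 to 6000 UMIs gave 18 calls in oligodendrocytes (36 in the main test), 20 in precursors (61) and 10 in inhibitory neurons (22), and summed levels of 1431 CPM in precursors (1248) and 1700 CPM in inhibitory neurons (1584). Excitatory neurons had fewer than 20 nuclei of such depth in some library and were left out, so the others were compared with fewer types. Total UMIs gave 35 calls in microglia (56), 40 in pericytes (25) and 69 in excitatory neurons (42). Leiden clusters gave 36 in inhibitory neurons. With 11 types microglia had 34 calls. With 11 types and without 5xFAD-P522R replicate 3 together, microglia had 34 and oligodendrocytes 22. Leaving out 1 library gave 15 to 25 calls in pericytes. The cause of these shifts was not tested, and the shares of all genes at these settings are not given here. Fewer nuclei, genes and cell types enter at restricted depth. Pericyte paralogue shares rest on 158 and 121 UMIs, and with 2 libraries a group a small change between groups may not be detectable.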
